A study of Homo sapiens with 8 samples.

Results

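The 18S rRNA is the RNA of the small ribosomal subunit, and its aldehyde-reactive probe (ARP) peaks were mapped along the mature molecule in wild-type (WT) cells and in cells without ALKBH1. ALKBH1 is a dioxygenase that oxidizes 5-methylcytidine in RNA to 5-hydroxymethylcytidine and 5-formylcytidine (f5C). ARP carries biotin and reacts with aldehydes such as the formyl group of f5C, and streptavidin then retains the labelled fragments. The members were all plus-strand peaks on the 45S pre-rRNA reference that overlapped the mature 18S. The files of the 8 libraries list 4746 peaks in all, and 288 of them were 18S peaks. Peaks of different libraries that overlapped on one strand were merged, which gave 84 18S regions among 1373 regions of all RNAs. RNA18SN1, the 18S copy on this reference, is 1869 nt long and lies on the plus strand of chromosome 21 from 8436876 to 8438744 (GRCh38). All of it is mature rRNA, so positions within it are exonic and not in a coding sequence or UTR. The region at its 5′ end also takes in pre-rRNA bases just before the first mature base. RNA18SN2 and RNA18SN3 differ from it by 1 base each, and a peak cannot be assigned to 1 of the copies.

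Total RNA of cells labelled HEK-293, an established human embryonic kidney line (HEK293T in the study's methods), was compared in 4 groups of 2 libraries. The groups were WT input, WT immunoprecipitate (IP, the streptavidin pulldown), knockout (KO) input and KO IP. RNA of every group, inputs included, was cut to about 150 nt, mixed with an f5C oligonucleotide and kept with 2 mM ARP for 24 h. Inputs thus differ from IPs in the pulldown and in later handling, and not in the labelling. IP RNA stayed on the beads for linker ligation and reverse transcription, while input RNA was purified with a kit before ligation. The input was a portion of the labelled RNA, set aside before the beads were added. The KO cells were made with CRISPR/Cas9, and the study describes more than 1 ALKBH1 line. Which line gave these libraries is not given in the sources used here. The study calls its pulldown replicates biological, but the labels do not say whether the libraries of a group came from separate cultures, and the p-values measure the spread between these libraries. ALKBH1 (chromosome 14, 77672404 to 77708023) had 0 peaks in the 8 libraries and gave no check of the genotype labels. The summed counts of all peaks were 94218 and 98032 in WT input, 65413 and 48380 in WT IP, 194494 and 285539 in KO input, and 53420 and 52137 in KO IP. A count is a unique cDNA, told apart by its random barcode, and CPM values are counts scaled to 1000000 counts in all peaks of that library. The lowest count of a listed 18S peak was 123 and 155 in KO input, 39 and 50 in WT input, and 10 to 17 in the IPs. A position without a peak was therefore not called at that depth, and its count is not known to be 0.

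Human 18S rRNA carries, besides many pseudouridines and ribose methylations, 7 base modifications that were used as landmarks. They are the hypermodified uridine m1acp3Ψ (made by pseudouridylation, then EMG1 and TSR3), a pair of N4-acetylcytidines (ac4C, made by NAT10), N7-methylguanosine (m7G, made by BUD23 with TRMT112), N6-methyladenosine (m6A, made by METTL5 with TRMT112) and a pair of adjacent dimethyladenosines (m6,2A, made by DIMT1). They lie in the decoding region and near the 3′ end, and some of them, such as m1acp3Ψ and m6,2A, are bulky on the base-pairing face and are known to stop reverse transcriptase. Positions below count from 1 at the first mature base, and 0 is the base before it. The 7 positions are background knowledge, and the expected base was present in the reference at all 7. The stretches on which the results turn were read from GRCh38 and are written as RNA, 5′ to 3′. Capitals mark the first mature base in the first line, the region in the second and the modified bases in the others.
5′ end, positions -2 to 26: accUaccugguugauccugccaguagcau
Region 912 to 919, with 7 nt on each side: cugaggcCAUGAUUAagaggga
m1acp3Ψ, 1248: uuaauuugacUcaacacggga
First ac4C, 1337: ggugcauggcCguucuuagu
m7G, 1639: caugaacgagGaauucccagu
m6A 1832, second ac4C 1842 and m6,2A 1850 and 1851: cguaAcaagguuucCguaggugAAccugcg
Each ac4C is the middle base of the letters CCG. These letters occur 52 times in the 18S, or at 2.79% of its 1867 trinucleotides, searched on the RNA strand.

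The 18S held a smaller share of the peak counts after pulldown than before it in both genotypes. It took 10.4% (95% Wilson interval 10.2 to 10.6) and 11.0% (10.8 to 11.2) of the counts in WT input, against 7.50% (7.30 to 7.70) and 7.86% (7.62 to 8.10) in WT IP. In KO cells it took 12.2% (12.0 to 12.3) and 11.6% (11.5 to 11.8) in input, against 9.02% (8.78 to 9.27) and 10.0% (9.79 to 10.3) in IP. These intervals cover counting error only. The group means were 10.7% ± 0.452, 7.68% ± 0.255, 11.9% ± 0.385 and 9.53% ± 0.72 (SD, n = 2 each), and IP and input did not overlap in either genotype. As a share of the tRNA and rRNA list alone, the means were 14.1% in WT input and 13.0% in WT IP, a smaller fall, and 16.3% in KO input and 12.8% in KO IP. An exact permutation test of 2 libraries against 2 gave p = 0.333 (two-sided) in each of 4 comparisons, the smallest p that this design allows. In edgeR's quasi-likelihood test, in which all 18S counts were 1 feature among 213, the 18S total fell by 0.52 ± 0.08 (log2 ± SE) from WT input to WT IP (adjusted p = 0.00691) and by 0.43 ± 0.11 from KO input to KO IP (adjusted p = 0.0176). Of all features 48.4% and 55.4% passed the adjusted p of 0.05 in those tests. Both calls were lost when 1 library was left out, with adjusted p = 0.118 and 0.0741 without WT input replicate 1 or 2, and 0.108 and 0.0505 without KO IP replicate 1 or 2. The difference between the genotypes in this change was -0.06 ± 0.12 (adjusted p = 0.707), in a test that 25.2% of features passed.

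**Figure D1:**
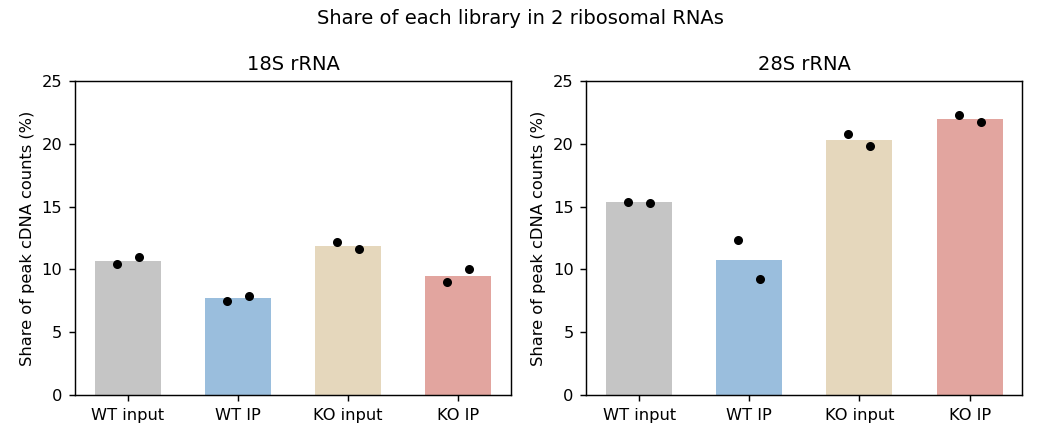
Share of each library's peak cDNA counts in the 18S and 28S rRNA, in percent. Bars are means of 2 libraries and points are single libraries. The 18S points of both IP groups lie below those of their inputs, while the 28S means were 15.4% in WT input, 10.7% in WT IP, 20.3% in KO input and 22% in KO IP.

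The 28S rRNA of the large subunit, counted as 1 feature in the same fits, fell by 0.56 ± 0.15 after pulldown in WT cells (adjusted p = 0.0337) and gave 0.0 ± 0.1 in KO cells (adjusted p = 0.974). The 5.8S rRNA fell in both, by 1.49 ± 0.11 in WT cells and by 0.77 ± 0.13 in KO cells (adjusted p = 0.000702 and 0.00432). The 5S rRNA took 5.09 and 5.14% of the counts in WT input, 2.26 and 2.21% in WT IP, 5.14 and 4.92% in KO input, and 4.01 and 4.04% in KO IP. Between the IPs of WT and KO cells, the 18S difference was -0.26 ± 0.13 (adjusted p = 0.123, or 3.61e-05 with a replicate block, where 35.9% of all features passed without the block), and that of the 28S was -0.98 ± 0.15 (adjusted p = 1e-06). Between the inputs the 18S difference was -0.26 ± 0.07 (adjusted p = 0.0591, where 33.5% passed).

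Peaks covered 154 to 283 of the 1869 nt, or 8.24 to 15.1% of the molecule, and they were not spread alike over it. Of the 84 regions, 9 had a peak in all 8 libraries, 22 in all 4 inputs and 11 in all 4 IPs. Of all 1373 regions, 186 had a peak in all 8 libraries, 400 in all 4 inputs and 220 in all 4 IPs. The counts among the 84 are thus not read as particular to this rRNA. Of the 22 regions with a peak in all 4 inputs, 7 had a peak in no IP, among them 35 to 43, 522 to 526 and 1617 to 1622. Only 223 to 228 and 1043 to 1051 had a peak in all 4 IPs and no input. The region 223 to 228 had 50 and 28 counts in WT IP and 96 and 37 in KO IP, and 1043 to 1051 had 56 and 157 in WT IP and 23 and 158 in KO IP. These counts overlapped between the genotypes, and neither region passed the test between the IPs (log2 difference WT minus KO -0.65 ± 0.46 and 0.48 ± 0.81, adjusted p = 0.328 and 0.681). With these 2, 39 regions in all had a peak in an IP and in no input, and 30 regions had a peak in 1 library only, 25 of these an IP. IP libraries are the shallower ones here, and their lowest listed counts were below those of the inputs. The counts of 7, 2, 39, 30 and 25 regions have no share of all regions beside them. They are not read as a trait of this rRNA.

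Of the regions called in both replicates of 1 group and nowhere else, 5 were WT IP, 0 were KO IP, 3 were WT input and 4 were KO input. The WT IP regions were 286 to 288 (16 and 15 counts), 740 to 741 (30 and 13), 885 to 900 (49 and 193), 1099 to 1101 (71 and 56) and 1596 to 1601 (56 and 25). No test was possible for them, since the count in a library without a peak is not listed. The WT input regions were 1275 to 1277, 1567 to 1579 and 1607 to 1608, and the KO input regions 472 to 475, 632 to 633, 1030 to 1031 and 1178 to 1179. None of these 12 regions held a landmark. No share of all regions stands beside these counts either, and 5 against 0 is not read as a trait of a genotype.

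**Figure D2:**
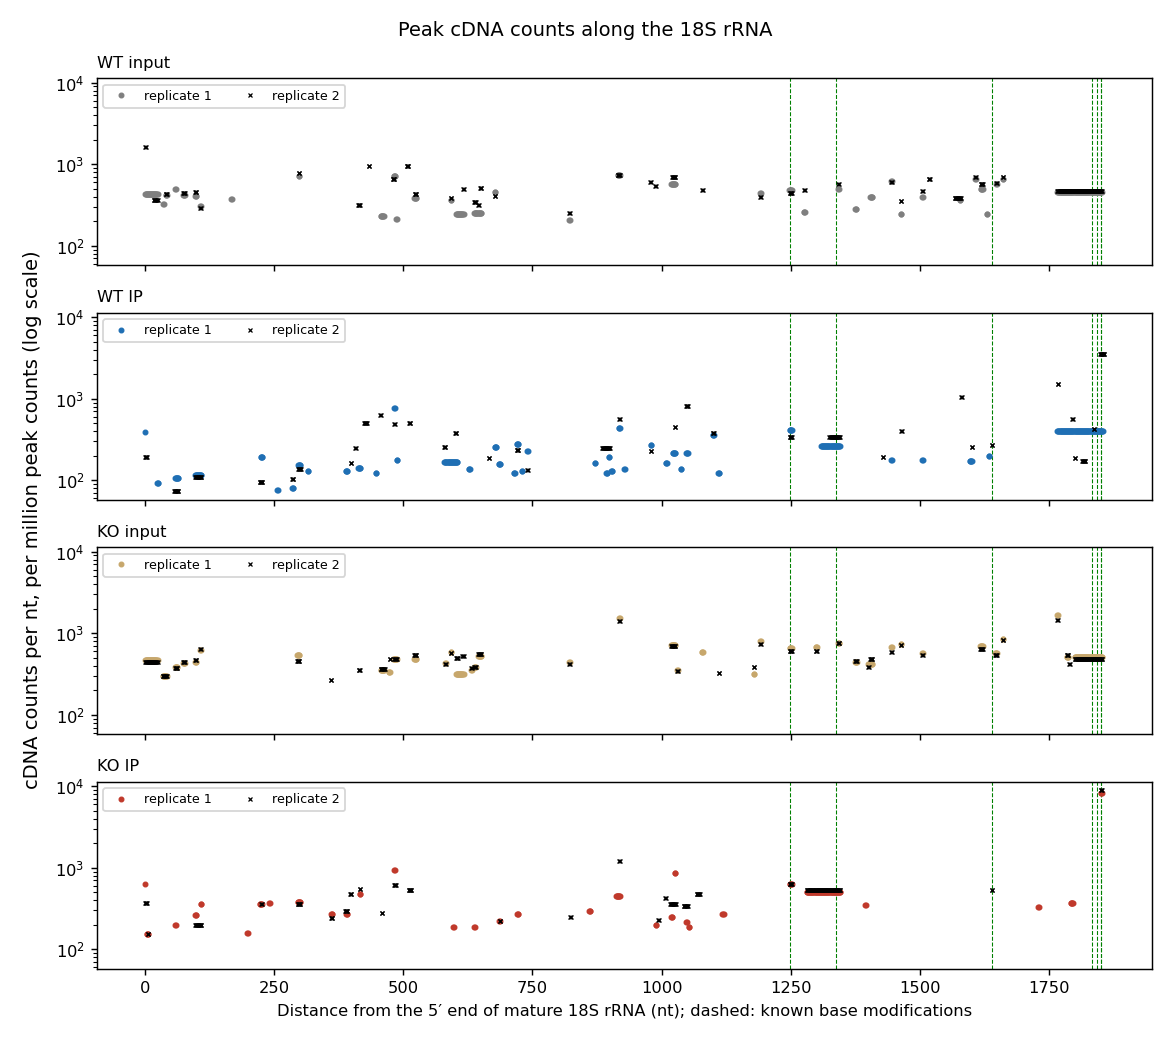
Counts along the mature 18S rRNA in the 4 groups, as cDNA counts per nt on the CPM scale (log axis) against the distance from the 5′ end in nt. Each peak's count is spread evenly over its positions, replicate 1 is coloured and replicate 2 black, and dashed lines mark the 7 landmarks. A block over position 1337 appears in the IP panels and in neither input panel, and the 3′ end carries signal in every panel.

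Only 22 positions lay under a peak in all 8 libraries. They included 1248 to 1252, which start at m1acp3Ψ, and 1850 to 1852, which start at the m6,2A pair. Positions 1 and 1342 to 1343 were also among them. Of the 7 landmarks, 3 were thus under a peak everywhere (1248, 1850 and 1851). The m6A at 1832 and the second ac4C at 1842 were under a peak in all 4 inputs and 1 IP. The m7G at 1639 was under a peak in 2 IPs and 0 inputs, and the first ac4C at 1337 in 4 IPs and 0 inputs.

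The summed peak counts of the region around the first ac4C (1281 to 1346) rose after pulldown in both genotypes, over peaks of unlike width. It held 95 and 114 counts in WT input, 639 and 350 in WT IP, 845 and 1182 in KO input, and 1796 and 1820 in KO IP. As CPM these were 1008 and 1163, then 9769 and 7234, then 4345 and 4140, then 33620 and 34908. The 4 groups did not overlap, with KO IP highest and WT input lowest. The peak also had another shape in each group. WT inputs had a peak of 2 nt at 1342 to 1343. WT IPs had 1 peak at 1309 to 1345 in replicate 1 and at 1325 to 1345 in replicate 2. KO inputs had a pair of narrow peaks at 1298 to 1300 and 1342 to 1344, and both KO IPs had 1 peak of 66 nt at 1281 to 1346. Position 1337 itself lay under the IP peaks alone, and the nearest input peak started 5 nt downstream of it. The sums thus cover 2 nt in both WT inputs, 37 and 21 nt in the WT IPs, 6 nt in both KO inputs and 66 nt in both KO IPs. The mean per covered nt was 504 and 581 CPM in WT input, 264 and 344 in WT IP, 724 and 690 in KO input, and 509 and 529 in KO IP, so per covered nt the inputs were the higher ones. Input counts over the rest of the region are not listed and not known to be 0.

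In edgeR's test on these sums, which compares counts in called peaks and not over the same positions, the ratio of IP to input was 2.90 ± 0.19 in WT cells (log2 ± SE, adjusted p = 0.00101) and 2.92 ± 0.13 in KO cells (adjusted p = 2.53e-05). The difference between these ratios, fitted over all 8 libraries with their own scaling, was 0.32 ± 0.23 (adjusted p = 0.318), and its sign depended on the scaling and on the peaks counted, with -0.04 on peak totals and -0.51 (adjusted p = 0.127) without the 1298 to 1300 peaks of the KO inputs. Levels in WT cells were below those in KO cells in both fractions. The log2 difference of WT from KO was -1.76 ± 0.15 between the IPs (adjusted p = 7.59e-05), which kept its call with each library left out. Between the inputs it was -1.92 ± 0.10 (adjusted p = 0.00958), or -1.03 (adjusted p = 0.0135) without the 1298 to 1300 peaks. That input call was lost without WT input replicate 1 (adjusted p = 0.0539), KO input replicate 1 (0.0677) or KO input replicate 2 (0.054). The region made up 1.01% ± 0.0593 of the 18S counts in WT input, 11.1% ± 2.7 in WT IP, 3.56% ± 0.00663 in KO input and 36.0% ± 1.76 in KO IP (SD, n = 2).

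The region at the 3′ end (1766 to 1857), with m6A, the second ac4C and the m6,2A pair, held the largest part of the 18S counts in 3 of the 4 groups. It made up 37.9% ± 0.848 of them in WT input, 48.1% ± 1.12 in WT IP, 27.7% ± 0.0803 in KO input and 28% ± 2.07 in KO IP, where the region of the first ac4C was larger. The counts were 3770 and 4034 in WT input, 2319 and 1858 in WT IP, 6557 and 9234 in KO input, and 1418 and 1387 in KO IP. Both WT inputs had 1 peak at 1766 to 1852 and WT IP replicate 1 had 1 at 1766 to 1854. WT IP replicate 2 had 6 peaks, of which 1849 to 1857 held 1540 counts. In KO inputs most counts (5508 and 7548) lay in a peak at 1799 to 1853, and in KO IPs (1319 and 1387) in a peak of 3 nt at 1850 to 1852, which starts at the m6,2A pair. The second ac4C thus lay under a wide peak in the inputs and in WT IP replicate 1 and under no peak in the other IPs, unlike the first ac4C.

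The peaks of the 3′ end also differed in width. They covered 87 nt in both WT inputs, 89 and 24 nt in the WT IPs, 61 and 63 nt in the KO inputs, and 8 and 3 nt in the KO IPs. Per covered nt this was 460 and 473 CPM in WT input, 398 and 1600 in WT IP, 553 and 513 in KO input, and 3320 and 8870 in KO IP, where the counts were the most concentrated. For the summed counts the ratio of IP to input was -0.20 ± 0.09 in WT cells (log2, adjusted p = 0.158) and -0.41 ± 0.11 in KO cells (adjusted p = 0.0182), and the KO call was lost without KO IP replicate 1 (adjusted p = 0.0814). WT exceeded KO cells by 0.72 ± 0.10 between the IPs (adjusted p = 0.000905) and by 0.35 ± 0.07 between the inputs (adjusted p = 0.0311), the latter not called once any 1 of the 4 inputs was left out (adjusted p of 0.0976 to 0.13). The ratios themselves differed between the genotypes by 0.54 ± 0.10 (adjusted p = 0.00606), or by 0.18 (adjusted p = 0.144) when libraries were scaled by peak totals.

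**Figure D3:**
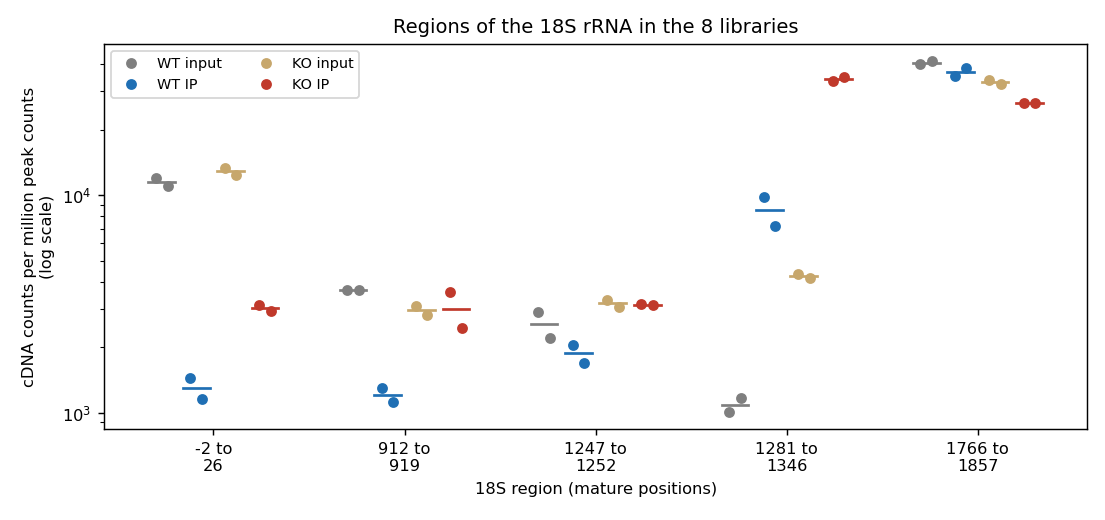
CPM (log scale) in the 8 libraries of 5 regions, at the 5′ end, at 912 to 919, at m1acp3Ψ (1247 to 1252), at the first ac4C (1281 to 1346) and at the 3′ end (1766 to 1857). Points are libraries and lines the means of 2. At the first ac4C the IPs lie above their inputs in both genotypes, and at the 5′ end they lie below them.

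The m1acp3Ψ region (1247 to 1252) had peaks of 5 or 6 nt in every library. It had 273 and 216 counts in WT input, 134 and 82 in WT IP, 643 and 877 in KO input, and 168 and 163 in KO IP. The peak ran from 1248 to 1252 in 7 of the 8 libraries and from 1247 to 1252 in WT input replicate 1. In CPM the WT libraries had 2898 and 2203 in input against 2049 and 1695 in IP, and the KO libraries 3306 and 3071 against 3145 and 3126. The WT IPs thus lay below both WT inputs, and the KO IPs lay between the KO inputs. It passed the threshold in none of the 5 edgeR comparisons, with log2 differences of -0.51 ± 0.21 for WT IP against input (adjusted p = 0.114), -0.12 ± 0.16 for KO IP against input (0.549), -0.49 ± 0.22 between the IPs (0.124), -0.27 ± 0.18 between the inputs (0.294) and -0.05 ± 0.24 for the difference of the ratios (0.903). Between the IPs it passed on peak totals (-0.74, adjusted p = 0.031) and with a replicate block (-0.50, adjusted p = 0.0285). The m7G region (1639 to 1640) had 26 counts in WT IP replicate 2 and 56 in KO IP replicate 2 and no peak in the other libraries, so it was not tested. The nearest input peaks there began 7 or 9 nt downstream, at 1646 or 1648.

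The 5′ end of the 18S, which is made when the pre-rRNA is cut, fell after pulldown in both genotypes. The region -2 to 26 had 1134 and 1074 counts in WT input, 94 and 56 in WT IP, 2591 and 3544 in KO input, and 167 and 153 in KO IP. In CPM it had 12036 and 10956, then 1437 and 1158, then 13322 and 12412, then 3126 and 2935, so the IPs did not overlap their inputs. The peaks covered 13 to 28 nt in the inputs and 6 to 9 nt in the IPs, with 430 to 843 CPM per covered nt in the inputs and 193 to 391 in the IPs. On the log2 scale IP stood at -3.21 ± 0.15 relative to input in WT cells (adjusted p = 0.0008) and -2.18 ± 0.15 in KO cells (adjusted p = 9e-05). Between the inputs the difference of WT from KO was -0.11 ± 0.10 (adjusted p = 0.428), and between the IPs it was -0.97 ± 0.24 (adjusted p = 0.0165). That last call was lost without KO IP replicate 1 (adjusted p = 0.135) or replicate 2 (0.0952).

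Between the 5′ end and the landmarks, 5 regions had peaks in all 8 libraries. At 1017 to 1028 the counts were 483 and 480 in WT input, 84 and 44 in WT IP, 1241 and 1784 in KO input, and 133 and 226 in KO IP. The IPs again did not overlap their inputs, and the log2 ratio was -2.25 ± 0.19 in WT cells (adjusted p = 0.00165) and -0.99 ± 0.25 in KO cells (adjusted p = 0.016). At 912 to 919, whose letters stand in the second line above, the counts were 344 and 360 in WT input, 85 and 54 in WT IP, 604 and 804 in KO input, and 191 and 127 in KO IP. The region fell in WT cells by 1.66 ± 0.15 (adjusted p = 0.00172), with 3651 and 3672 CPM in input against 1299 and 1116 in IP. In KO cells the CPM overlapped, with 3105 and 2816 in input against 3575 and 2436 in IP, and the log2 ratio was -0.07 ± 0.22 (adjusted p = 0.804). The peak at 912 to 919 covered 5 nt in both WT inputs, 3 and 2 nt in the WT IPs, and 2 nt in both KO inputs. It covered 8 nt in KO IP replicate 1, the higher one, and 2 nt in KO IP replicate 2. Over the same positions, 918 to 919, KO IP replicate 2 lay below both KO inputs. Per covered nt the region had 730 and 734 CPM in WT input against 433 and 558 in WT IP. In KO cells it had 1550 and 1410 in input against 447 and 1220 in IP. Per covered nt the IPs thus lay below their inputs in both genotypes, unlike the sums in KO cells. Peaks of these 5 regions covered 2 to 9 nt in the inputs and 2 to 13 nt in the IPs.

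The other 3 of these regions had ratios from -1.13 to -0.27. At 295 to 302 the counts were 134 and 152 in WT input, 50 and 40 in WT IP, 529 and 653 in KO input, and 123 and 112 in KO IP, and the IP to input ratio (log2) was -0.97 ± 0.19 in WT cells (adjusted p = 0.0179) and -0.27 ± 0.19 in KO cells (adjusted p = 0.269). The WT call was lost without WT input replicate 1 or 2 or without WT IP replicate 1 (adjusted p = 0.127, 0.259 and 0.0569). At 480 to 489 the ratio was -1.13 ± 0.34 in WT cells (adjusted p = 0.0528) and -0.73 ± 0.24 in KO cells (adjusted p = 0.0362), the latter lost without KO input replicate 1 (0.143) or KO IP replicate 1 (0.0834). The WT ratio at 480 to 489 passed in DESeq2 (-0.99, adjusted p = 0.0466), with a score of at least 20 (-1.04, 0.0413), with a replicate block (-1.17, 0.0109) and without WT input replicate 2 (0.0286) or WT IP replicate 1 (0.0185), while the KO ratio did not pass with the block (0.0723). The region 98 to 110 did not pass in either genotype (-0.43 ± 0.16 and -0.47 ± 0.26, adjusted p = 0.0943 and 0.167). Per covered nt, 98 to 110 had 369 and 390 CPM in WT input against 115 and 111 in WT IP. In KO cells it had 515 and 539 in input against 300 and 198 in IP. At 295 to 302, WT cells had 711 and 775 against 153 and 138, and KO cells 544 and 457 against 384 and 358. At 480 to 489 WT IPs also lay below their inputs, with 470 and 486 against 554 and 666. KO IPs there lay above theirs, with 936 and 623 against 481 and 486. The region 580 to 617 was called in 7 libraries and could be tested in WT cells, where its counts of 418 and 173 in input and 283 and 93 in IP overlapped in CPM (4437 and 1765 against 4326 and 1922) and gave a ratio of -0.06 ± 0.59 (adjusted p = 0.933).

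**Figure D4:**
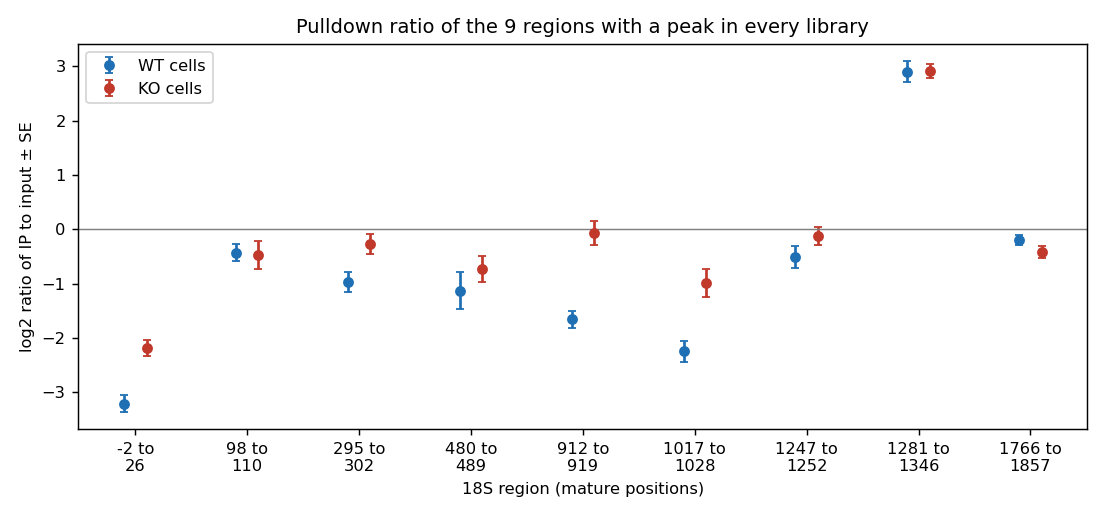
Log2 ratio of IP to input ± SE from edgeR for the 9 18S regions with a peak in all 8 libraries, along the molecule, in WT and KO cells. The region at 1281 to 1346 stands near 2.9 in both genotypes and all other regions lie below 0. The ratios are of summed counts in called peaks, whose widths differ between libraries.

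Regions were tested when every library compared had a peak, which leaves out those called in IPs alone. After pulldown in WT cells, 10 regions were tested and 5 passed, 1 higher and 4 lower, where 48.6% of all 243 regions passed (23.5% higher and 25.1% lower). In KO cells 9 were tested and 5 passed, 1 higher and 4 lower, where 56.5% of all 246 passed (25.6% higher and 30.9% lower). The share of 18S regions that passed was thus near that of all RNAs in both. The median log2 ratio of the 18S regions was -0.74 in WT cells and -0.41 in KO cells, beside -0.17 and 0.04 over all regions. The 18S region that rose was that of the first ac4C in both genotypes. With uncalled regions set to 0, 36 18S regions were tested in each genotype. Of these 9 rose and 16 fell in WT cells, where 59.2% of all 566 regions passed (22.3% higher and 36.9% lower), and 5 rose and 21 fell in KO cells, where 70.3% of all 737 passed (12.2% higher and 58.1% lower). Those values depend on the unlisted counts being 0.

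Between WT IP and KO IP, 11 18S regions were tested and 6 passed, 1 higher and 5 lower in WT cells, where 37.7% of all 220 regions passed (18.6% higher and 19.1% lower). The 1 that was higher in WT cells was the 3′ end, and the lower ones were 1281 to 1346, 1017 to 1028 (-1.38 ± 0.33, adjusted p = 0.0132), 295 to 302 (-1.24 ± 0.27, adjusted p = 0.00878), 912 to 919 (-1.07 ± 0.28, adjusted p = 0.0195) and the 5′ end. Without KO IP replicate 1, 295 to 302 and 912 to 919 were among the calls lost. Without KO IP replicate 2, 1017 to 1028 and 295 to 302 were among those lost. These fits leave 1 library in a group and have no share of all regions beside them, so the losses are not read as particular to the 18S.

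Between the inputs, 22 regions were tested and 10 passed, 1 higher and 9 lower in WT cells, where 34.0% of all 400 regions passed (14.5% higher and 19.5% lower). The largest differences after that of the first ac4C were at 1463 to 1465 (-1.23 ± 0.18), 1646 to 1649 (-0.88 ± 0.10), 822 to 824 (-0.86 ± 0.17) and 1191 to 1192 (-0.82 ± 0.14), with adjusted p = 0.0207, 0.0159, 0.0311 and 0.024. In CPM, 1463 to 1465 had 499 and 704 in WT input against 1465 and 1453 in KO input, and 1646 to 1649 had 1146 and 1183 against 2298 and 2143. These input calls did not hold against the loss of a library. Without WT input replicate 1, KO input replicate 1 or KO input replicate 2, edgeR called 0 of the 22 (14, 10 and 11 at an unadjusted p under 0.05), and 3 without WT input replicate 2. DESeq2 called 3 of 22 with all libraries.

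The comparisons above share libraries, so the ratios of the genotypes were also compared in 1 fit. Of 9 18S regions tested, the ratio of IP to input differed in 3, higher in WT than in KO cells in 1 and lower in 2, where 31.2% of all 186 regions passed (20.4% higher and 10.8% lower). These were the 3′ end (0.54 ± 0.10, adjusted p = 0.00606), 912 to 919 (-1.25 ± 0.29, adjusted p = 0.0171) and the 5′ end (-0.68 ± 0.19, adjusted p = 0.0291). This fit scales all 8 libraries together, so its values are not the plain differences of the ratios fitted within each genotype. With peak totals in place of TMM, 0 were higher and 4 lower, where 69 of all 186 regions passed (21 higher and 48 lower). The median over all 186 regions was then -0.34, against 0.02 with TMM. The 5′ end kept its call without WT IP replicate 1 and lost it without any of the other 7 libraries (adjusted p of 0.062 to 0.123), and 912 to 919 lost it without WT input replicate 2, KO input replicate 2 or WT IP replicate 2 (adjusted p = 0.0524, 0.0685 and 0.0613).

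The base composition under the peaks, weighted by counts, showed no rise of C after pulldown beyond the spread of the libraries. C made up 21.2% ± 0.761 in WT input, 24.6% ± 4.85 in WT IP, 23.2% ± 1.28 in KO input and 24.8% ± 1.53 in KO IP (SD, n = 2), beside 26.7% in the whole 18S. A made up 28.9% ± 0.568 in WT input, 26.4% ± 1.72 in WT IP, 31.5% ± 0.957 in KO input and 36.3% ± 1.7 in KO IP, beside 22.4% in the whole 18S. The high share of A in KO IP goes with the 3 nt peak at the m6,2A pair, which alone held 27.4 and 26.5% of the 18S counts there.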

How the data were processed

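The data are ARP-seq libraries of fragmented total RNA, 2 per group, and each library has a tRNA and rRNA peak list and a genome peak list. The authors deposited, for each peak, a count of unique cDNAs after removal of barcode duplicates. Reads were mapped with STAR on the iMaps server, first to tRNA and rRNA and then to GRCh38. Paraclu called peaks in each library on its own, and widths and the lowest listed count (10 over all files) vary between libraries. Here peaks sharing 1 nt or more on one strand were merged, counts summed, and the regions that had peaks in all libraries compared were tested with edgeR 4.0.16 (quasi-likelihood, TMM, Benjamini-Hochberg over all regions tested, threshold 0.05; SE from the fitted log2 difference and its F). DESeq2 1.42.0, other scalings, filters and windows were alternatives, and the edgeR fit was also run on simulated counts. The simulation gave every feature a count in every library. It therefore did not cover the calling of peaks in each library or their unlike widths. A cDNA end marks where reverse transcription stopped, not a modified base by itself. Sequences and the gene position are from GRCh38 and RefSeq (GRCh38.p14). Regions were named when they held a landmark, had 1 of the 5 largest changes past the threshold or 1 of the 3 largest shares of a group, or were called in 1 group only; those called in every library or in every IP only were also named. Members, landmarks and rules were chosen with earlier results of these data known. The mitochondrial methionine tRNA served only as a left-out denominator.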

Additional observations from a re-analysis of the deposited data

Results flagged for a closer look

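The ratio of IP to input differed between WT and KO cells, by the test of that difference, in 3 of the 9 18S regions tested. Of all 186 regions 31.2% passed that test. The log2 difference, WT minus KO, was -0.68 at -2 to 26, -1.25 at 912 to 919 and 0.54 at 1766 to 1857. These values come from 1 fit that scales all 8 libraries together and are not the plain differences of the ratios that follow, which were fitted within each genotype. At 912 to 919 the ratio was -1.66 in WT and -0.07 in KO cells, and at -2 to 26 it was -3.21 and -2.18. At 1766 to 1857 it was -0.20 and -0.41, and this difference was not called on peak totals (0.18, adjusted p = 0.144). The calls at -2 to 26 and at 912 to 919 did not hold with every library left out, as given above. At 912 to 919 KO IP replicate 1 had a peak of 8 nt, against 2 nt in KO IP replicate 2 and in both KO inputs. Per covered nt the IPs lay below their inputs there in both genotypes, so the difference of the ratios holds for summed counts only.

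Minus-strand peaks over the 18S, which entered no comparison, ended at position 930 in all 4 IPs and in no input. They held 39 counts in WT IP replicate 1 (872 to 930), 34 in WT IP replicate 2 (928 to 930), 47 in KO IP replicate 1 (898 to 930) and 56 in KO IP replicate 2 (870 to 930). The inputs had minus-strand peaks elsewhere, with 11 counts in WT input replicate 2, 11 in KO input replicate 1, and 20 and 19 in KO input replicate 2. The shared end was picked after the values were seen.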

How the results depend on the processing

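Of the results on counts, totals, shares, the map and base composition, 128 of 169 alternative values stayed within the limits set for them. With regions that lacked a peak set to 0, the count of 18S regions called was 25 in WT cells and 26 in KO cells after pulldown, where 59.2% and 70.3% of all regions passed. It was 13 between the IPs and 19 between the inputs. In windows of 50 nt it was 10 and 8 after pulldown, 3 between the IPs and 1 for the difference of the ratios. A mean count of at least 50 left 2 in KO cells. DESeq2 called 3 of 22 18S regions between the inputs, and 59 of all 400 regions. The other counts of called regions in this paragraph have no share of all regions beside them and are not read as a result about the 18S. Without 1 library the counts ran from 4 to 5 in WT cells, 3 to 6 in KO cells, 3 to 8 between the IPs, 0 to 3 between the inputs and 1 to 3 for the difference of the ratios. The 18S total without 1 library ran from -0.62 to -0.49 in WT cells and from -0.62 to -0.35 in KO cells. It was -0.19 in KO cells with a mean count of at least 50 (adjusted p = 0.221), -0.31 between the IPs on peak totals (0.0496), -0.27 between the inputs with a score of at least 20 (0.0334) and 0.03 for the difference of the ratios with a mean count of at least 50. With the tRNA and rRNA list as denominator the 18S share was 14.1, 13.0, 16.3 and 12.8% in WT input, WT IP, KO input and KO IP, so the fall in WT cells was then smaller. With all peaks but the mitochondrial methionine tRNA as denominator, WT IP had 9.13% and WT input 10.9%. With each count at the middle of its peak, the first 100 nt held 2.61% in WT IP, 17.3% in KO input and 3.85% in KO IP. Positions 1301 to 1400 then held 36.4% in KO IP, and positions 1801 to 1869 held 37.9% in WT input and 23.0% in KO input. Unweighted, C was 22.5% in WT input and 22.6% in KO IP. The cause of these shifts was not tested, beyond the fewer or more regions and counts that each setting takes.

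An input was a portion of labelled RNA that then went to the beads, but no source says that equal replicate numbers mark 1 reaction, so the numbers were not taken as pairs. Deviations of equal numbers correlated at 0.494 between WT input and WT IP, 0.17 between the inputs, 0.306 between the IPs, 0.234 between KO input and KO IP, 0.442 between WT input and KO IP and -0.0529 between WT IP and KO input (186 regions). A replicate block gave 6, 4, 8, 12 and 3 calls among the 10, 9, 11, 22 and 9 18S regions tested in the 5 comparisons. Shares of all regions with the block are not given here, so these counts are not read as a result about the 18S. The block gave -0.26 for the 18S total between the IPs (adjusted p = 3.61e-05). Between the inputs it gave 0.36 at 912 to 919 (0.0454, against 0.0569 without the block) and -0.28 at 1017 to 1028 (0.0456, against 0.0638).

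Among named regions 37 values changed sign, and none of these 37 passed the threshold in either fit. In WT cells, 580 to 617 gave 0.10 with RLE factors, 0.02 on peak totals, 0.09 in DESeq2, 0.05 with uncalled regions at 0, 0.25 with a mean count of at least 50, 0.04 with a score of at least 20, and -0.71 to 0.82 without 1 library. With that mean count, 1766 to 1857 gave 0.08 in WT cells. In KO cells, 912 to 919 gave 0.02 on peak totals, 0.12 with that mean count and -0.33 to 0.13 without 1 library, and 1247 to 1252 gave 0.09 with that mean count. For the difference of the ratios, 1281 to 1346 gave -0.04 on peak totals, -0.02 with uncalled regions at 0 and -0.51 without the upstream peaks of the KO inputs, a setting chosen after the data were seen. There, 480 to 489 and 1247 to 1252 both gave 0.04 with that mean count or score and 0.01 without those peaks. Without 1 library the difference of the ratios ran from -0.13 to 0.57 at 1281 to 1346, from -0.84 to 0.39 at 480 to 489 and from -0.41 to 0.14 at 1247 to 1252. Differences between the IPs then ran from -0.55 to 0.21 at 98 to 110, from -1.17 to 0.19 at 223 to 228, from -0.92 to 0.05 at 480 to 489 and from -0.74 to 2.46 at 1043 to 1051, and between the inputs from -0.36 to 0.11 at 480 to 489. At 1043 to 1051 edgeR's adjusted p was 0.00124 without WT IP replicate 1, 0.000534 without KO IP replicate 2 and 0.0119 with the replicate block, against 0.681 with all libraries. In the IPs 10 counts were 153 to 207 CPM. The lowest listed 18S peaks stood at 153 and 269 CPM in WT IP and 318 and 307 in KO IP. In the inputs they stood higher, at 414 and 510 CPM in WT input and 632 and 543 in KO input. A weak peak could thus be listed in an IP and not in an input.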
